A study of Mus musculus with 2 samples.

Results

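CXC and CX3C chemokines and their receptors were examined in the liver of apoE-KO mice. The group held 10 genes, of which 8 encode ligands (Cxcl1, Cxcl2, Cxcl9, Cxcl10, Cxcl12, Cxcl13, Cxcl14 and Cxcl16) and 2 encode receptors (Cxcr4 and Cx3cr1), out of 27962 gene names on the array. The genes were chosen by name, with earlier results of the same arrays known, so the differences between the diets given for them are a description. Their intervals, and the calls at an adjusted p below 0.05, come from the fit over all genes and are no independent evidence about genes chosen in this way. All 10 genes had a probe, and 4 of them (Cxcl12, Cxcl16, Cxcr4 and Cx3cr1) had 2 probes, which made 14 probes in all. A further 18 genes of the CXC, CX3C and XC families were read beside them.

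Liver RNA came from male C57BL/6 mice that all lacked apoE, the apolipoprotein through which remnant lipoproteins are cleared from the blood. The diets lasted 1 week, starting when the animals were 10 weeks old, and differed in the 1.25% Chol that was mixed into the chow of the high-Chol group. Each diet was measured in 3 independent experiments on one-colour arrays with 60-base probes. Since no wild-type animals entered the comparison, every value belongs to a liver without apoE.

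Chemokines are small secreted proteins that direct the movement of leukocytes through receptors coupled to G proteins. CXC ligands with a Glu-Leu-Arg motif, such as Cxcl1, Cxcl2 and Cxcl5, attract neutrophils through Cxcr2, whereas the interferon-inducible ligands Cxcl9 and Cxcl10 attract activated T cells and NK cells through Cxcr3. Cxcl12, which acts through Cxcr4, and Cxcl14 are made without an inflammatory stimulus, and Cx3cr1, the receptor of the membrane-bound ligand Cx3cl1, is found on monocytes and several resident macrophages. In the liver these genes can be expressed by hepatocytes, sinusoidal endothelial cells, stellate cells, Kupffer cells and any leukocytes present, and an array of whole tissue gives their sum.

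Levels are log2 values of the background-subtracted signal after subtraction of the 75th percentile of its array, a difference is the mean of the high-Chol diet minus that of normal chow on this scale, and levels of different probes are not compared. One slide (slide 1) carried all 3 arrays of normal chow and 1 array of the high-Chol diet, and another (slide 2) carried the remaining 2 high-Chol arrays, which were read with an earlier version of the scanner software. For this reason the values of each gene are listed for the chow arrays first, then for the high-Chol array of slide 1, and last for both arrays of slide 2, and the difference within slide 1 is given as well. The 75th percentile was a signal of 271 to 373 on slide 1 and of 762 to 799 on slide 2. The tissue label was checked with 8 hepatocyte genes, of which 7 were measured, with a mean level of 7.42 to 7.57 on the arrays of normal chow and of 7.22 to 7.31 on those of the high-Chol diet. Apoe itself gave a signal above background on each array, at 1.66 to 3.81, and whether its probe lies outside the deleted part of the gene is not known here. Across the 16728 genes tested by limma, 450 (2.69%) were called higher and 38 (0.227%) lower on the high-Chol diet at a Benjamini-Hochberg adjusted p below 0.05, and the median difference was -0.02. Without overlap between the diets, 1948 genes (11.6%) were higher and 2299 (13.7%) lower.

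The promoters of the 4 called genes are shown, since Cxcl1, Cxcl2 and Cxcl10 hold matches to 1 or more of 3 elements searched for here, while Cxcl9, the neighbour of Cxcl10, has no exact match to these 3. Each line gives the 250 bases before the transcription start, 5′ to 3′, from RefSeq on GRCm38.p6, with matches in capitals. The regions are chr5:90890995-90891244 (plus strand) for Cxcl1, chr5:90903649-90903898 (plus strand) for Cxcl2, chr5:92348890-92349139 (minus strand) for Cxcl10 and chr5:92328080-92328329 (minus strand) for Cxcl9.
Cxcl1: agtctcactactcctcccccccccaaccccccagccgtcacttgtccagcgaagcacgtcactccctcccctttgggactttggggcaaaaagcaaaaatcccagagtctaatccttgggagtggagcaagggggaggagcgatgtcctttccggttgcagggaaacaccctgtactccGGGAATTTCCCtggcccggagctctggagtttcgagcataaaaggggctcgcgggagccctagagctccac
Cxcl2: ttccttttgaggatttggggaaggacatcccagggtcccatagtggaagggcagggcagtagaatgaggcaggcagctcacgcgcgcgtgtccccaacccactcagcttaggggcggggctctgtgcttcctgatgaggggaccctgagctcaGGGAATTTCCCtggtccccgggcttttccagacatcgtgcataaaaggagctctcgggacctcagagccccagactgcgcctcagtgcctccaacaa
Cxcl10: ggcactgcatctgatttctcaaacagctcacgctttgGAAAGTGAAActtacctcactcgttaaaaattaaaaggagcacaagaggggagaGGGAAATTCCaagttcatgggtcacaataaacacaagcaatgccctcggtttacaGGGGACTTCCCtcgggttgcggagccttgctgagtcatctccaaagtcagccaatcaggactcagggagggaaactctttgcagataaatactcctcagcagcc
Cxcl9: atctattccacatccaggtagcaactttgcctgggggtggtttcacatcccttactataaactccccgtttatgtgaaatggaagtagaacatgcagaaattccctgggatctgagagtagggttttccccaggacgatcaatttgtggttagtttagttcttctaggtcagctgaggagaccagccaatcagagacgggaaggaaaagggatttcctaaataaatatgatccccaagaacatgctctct

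The search covered both strands and 3 elements that were picked with the values known, the NF-kB consensus, the interferon-stimulated element (GAAA, any 2 bases, GAAA) and the GAS element (TTCNNNGAA). A match to the NF-kB consensus was found 71 to 61 bases before the start of Cxcl1 and 97 to 87 bases before the start of Cxcl2, in each case as overlapping matches in the run GGGAATTTCCC. Cxcl10 held it at 159 to 150 bases and again at 104 to 94 bases before the start, and held in addition the interferon-stimulated element GAAAGTGAAA at 213 to 204 bases. No match to the letters of any of the 3 elements was found in this window of Cxcl9. Of 9 members with an entry in the promoter table, 3 held the NF-kB consensus (Cxcl1, Cxcl2 and Cxcl10), 2 the interferon-stimulated element (Cxcl10 and Cxcl14) and 1 the GAS element (Cxcl14). Of 14 other family genes with an entry, Cxcl3, which was at background on all 6 arrays, and Ackr2, whose diets overlapped, held the NF-kB consensus as well, Cxcl3 in the same run GGGAATTTCCC at 73 to 63 bases before the start. Among all 32851 promoters of the same length the shares were 7.25%, 2.98% and 7.02%. A match is a description of the sequence and says nothing of binding in these livers.

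Of the 10 genes, 9 passed the filter, which asked that every array of 1 diet or the other read the probe well above background, and 6 (Cxcl1, Cxcl9, Cxcl10, Cxcl12, Cxcl14 and Cxcl16) were well above background on all 6 arrays. Limma called 4 genes higher on the high-Chol diet (Cxcl1, Cxcl2, Cxcl9 and Cxcl10) and 0 lower, where 2.69% and 0.227% of all genes were called. At 8 genes the 3 high-Chol arrays lay above the 3 chow arrays without overlap and at 0 genes below them, against 11.6% and 13.7% of all genes. Since these arrays were known when the genes were chosen, and Cxcl2, Cxcr4 and Cx3cr1 passed through their high-Chol arrays only, nothing is read from these counts. In the array data of whole liver, more cells of a type and more RNA per cell cannot be told apart.

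**Figure D1:**
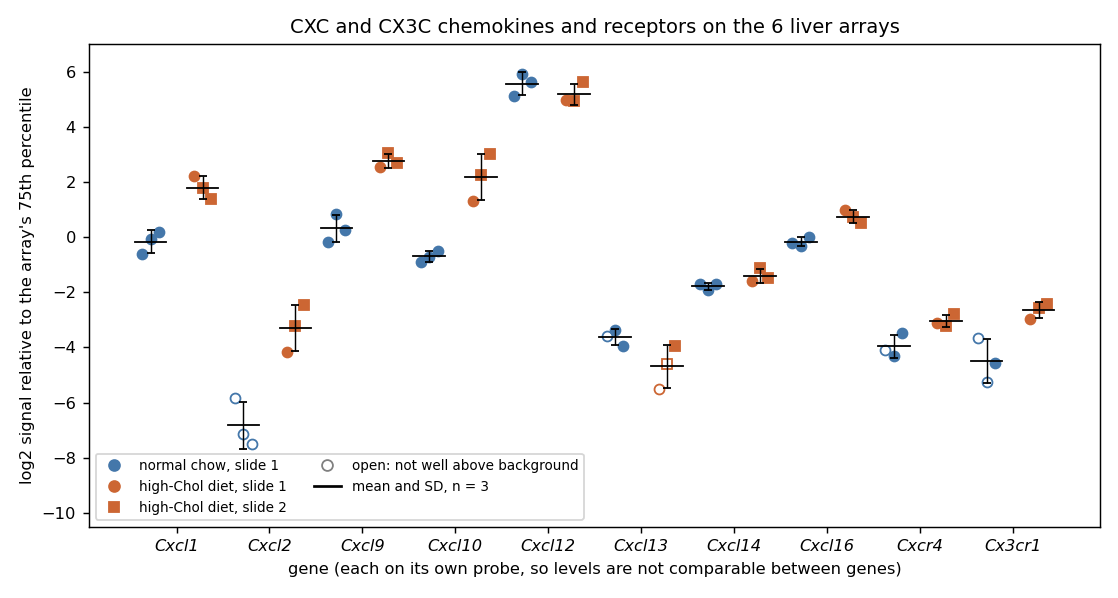
Level of each of the 10 genes on the 6 arrays, as log2 signal relative to the 75th percentile of the array, with normal chow in blue, the high-Chol diet in orange, slide 1 as circles and slide 2 as squares. Open symbols were not well above background, and bars give the mean and SD of 3 arrays. The diets separate upward at 8 genes, where 11.6% of all genes separate upward and 13.7% downward, and overlap at Cxcl12 and Cxcl13. Of the 8 genes, Cxcl2, Cxcr4 and Cx3cr1 passed the filter through their high-Chol arrays only, so nothing is read from the count.

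Cxcl1 attracts neutrophils. Its probe, at chr5:90882059-90882118 in the mm7 annotation of the array, read -0.61, -0.08 and 0.20 with chow, 2.23 with the high-Chol diet on slide 1, and 1.78 and 1.37 with it on slide 2. All high-Chol arrays lay above all chow arrays, and the highest of them was the one on slide 1. The difference was 1.96 (SE 0.29, 95% interval 1.28 to 2.64, n = 3 arrays per diet), or 3.89-fold, and 2.39 within slide 1. The signal was well above background on all 6 arrays.

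Cxcl2, the neighbour of Cxcl1 and a ligand of the same receptor, was near background on normal chow. The levels were -5.85, -7.13 and -7.49 with chow, none of them well above background, and -4.15 with the high-Chol diet on slide 1, and -3.24 and -2.48 with it on slide 2, all well above background. The measured values of the diets did not overlap. The lowest signal well above background on the first chow array was -3.60, above the -4.15 of slide 1, so the limits do not separate the diets. Over the chow arrays these limits had a mean of -4.55. The measured means were -6.82 and -3.29. Since the chow level is only an upper limit, the mean of Cxcl2 was higher by at least 2.40-fold. Leaving out 1 array at a time, this bound lay between 1.81-fold and 3.34-fold. The bound was taken from the mean of its high-Chol values and, on each chow array, the lowest signal still counted as well above background. The fitted difference of 3.53 (SE 0.54) depends on how background is treated, and it was 2.67 within slide 1 and -0.22 with a normexp background.

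Cxcl9 and Cxcl10 are the interferon-inducible ligands of Cxcr3. Cxcl9, with its probe at chr5:92310412-92310471, read -0.16, 0.84 and 0.26 with chow, 2.53 with the high-Chol diet on slide 1, and 3.05 and 2.70 with it on slide 2. The 3 high-Chol arrays lay close together and apart from those of normal chow. The difference was 2.45 (SE 0.28, 95% interval 1.79 to 3.11), or 5.45-fold, and 2.22 within slide 1. Cxcl10 (chr5:92334002-92334061) read -0.90, -0.71 and -0.49 with chow, 1.30 with the high-Chol diet on slide 1, and 2.24 and 3.00 with it on slide 2. The diets did not overlap, and the high-Chol arrays were more spread (SD 0.85) than the chow arrays (SD 0.21), with the array of slide 1 the lowest of them. The difference was 2.88 (SE 0.40, 95% interval 1.93 to 3.83), or 7.36-fold, and 2.00 within slide 1. Both genes were well above background on all 6 arrays.

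Cxcl16 is made as a membrane-bound protein that acts both as the ligand of Cxcr6 and as a scavenger receptor for oxidized lipoprotein. Its brighter probe read -0.21, -0.31 and 0.01 with chow, 0.97 with the high-Chol diet on slide 1, and 0.74 and 0.50 with it on slide 2. The diets did not overlap, the difference was 0.90 (SE 0.18, 95% interval 0.47 to 1.33), or 1.87-fold, and within slide 1 it was 1.13. This probe spans 2742 bases of the genome (chr11:70537593-70540334) and so crosses an exon junction. The other probe (chr11:70535852-70535911), which read -0.67, -0.70 and -0.93 with chow and -0.16, -0.07 and -0.13 with the high-Chol diet, gave a difference of 0.65 and one of 0.61 within slide 1. Both probes separated the diets, and the gene was not called.

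Cxcl14, a ligand of epithelia and fibroblasts, read -1.71, -1.93 and -1.71 with chow, -1.60 with the high-Chol diet on slide 1, and -1.13 and -1.50 with it on slide 2. The diets did not overlap, but the gap between -1.71 and -1.60 was small. The difference of 0.38 (SE 0.18, 95% interval -0.05 to 0.80) included 0 in its interval, was 0.18 within slide 1, and was -0.12 with a normexp background.

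Cxcl12, which holds leukocyte precursors in place and guides lymphocytes, was the one member well above background on all 6 arrays whose mean was lower on the high-Chol diet, and the diets overlapped. Its brighter probe (chr6:117207552-117207611) read 5.12, 5.93 and 5.64 with chow, 4.97 with the high-Chol diet on slide 1, and 4.94 and 5.61 with it on slide 2. The difference was -0.39 (SE 0.27, 95% interval -1.04 to 0.26) and -0.59 within slide 1, so that neither a lower level nor a slightly higher one lies outside the interval. The other probe (chr6:117200799-117200858), designed on another transcript of the gene, read 2.12, 2.49 and 2.50 with chow and 2.19, 1.71 and 2.61 with the high-Chol diet, a difference of -0.20. It overlapped as well.

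Cxcl13, the ligand that draws B cells into follicles through Cxcr5, was at the edge of detection. It was well above background on 2 chow arrays and 1 high-Chol array, did not pass the filter and was not tested. Its levels were -3.58, -3.38 and -3.95 with chow, -5.50 with the high-Chol diet on slide 1, and -4.60 and -3.94 with it on slide 2. The diets overlapped by a narrow margin, with a difference of -1.05, and of -1.87 within slide 1.

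The brighter probe (chr1:128469220-128469279) of Cxcr4, the receptor of Cxcl12, read -4.11, -4.30 and -3.49 with chow, -3.10 with the high-Chol diet on slide 1, and -3.24 and -2.80 with it on slide 2. It was well above background on 2 chow arrays and all 3 high-Chol arrays. The diets did not overlap, and the difference of 0.92 (SE 0.25, 95% interval 0.34 to 1.50) was 0.87 within slide 1 and -0.34 with a normexp background. The other probe (chr1:128468640-128468699) read -5.87, -4.60 and -4.51 with chow and -2.92, -2.67 and -3.68 with the high-Chol diet, without overlap, a difference of 1.90. Both probes thus lay higher on the high-Chol diet, by amounts that differed.

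Cx3cr1, the fractalkine receptor, gave probes that disagreed. The brighter one (chr9:119745795-119745854) read -3.66, -5.27 and -4.55 with chow, where 1 of 3 arrays was well above background, then -2.97 with the high-Chol diet on slide 1, and -2.55 and -2.43 with it on slide 2. These did not overlap, and the difference of 1.84 (SE 0.39, 95% interval 0.91 to 2.77) was 1.52 within slide 1 and -0.25 with a normexp background. The other probe (chr9:119747387-119747446) read -4.42, -4.33 and -5.06 with chow, -4.60 with the high-Chol diet on slide 1, and -3.31 and -3.34 with it on slide 2. Here the diets overlapped, the difference was 0.85 (95% interval -0.05 to 1.76), and within slide 1 it was 0.00. The higher level of Cx3cr1 therefore rests on the brighter probe, and on the other probe it was seen on slide 2 alone.

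**Figure D2:**
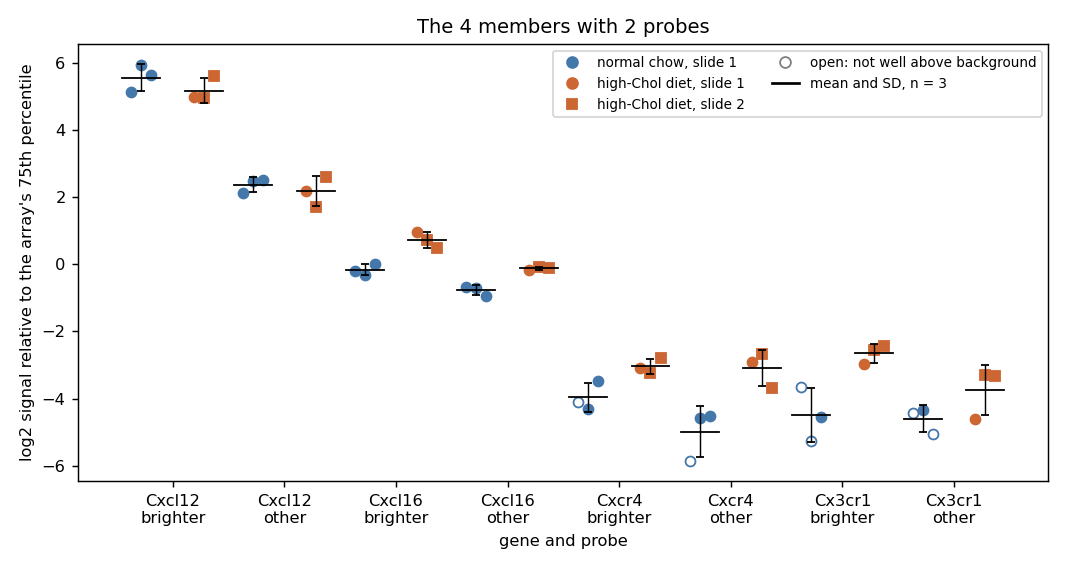
Level of the 4 genes with 2 probes on the 6 arrays, as log2 signal relative to the 75th percentile of the array, with normal chow in blue, the high-Chol diet in orange, slide 1 as circles, slide 2 as squares, open symbols for spots not well above background, and the mean and SD of 3 arrays. Both probes of Cxcl16 and of Cxcr4 separate the diets, neither probe of Cxcl12 does, and Cx3cr1 separates on its brighter probe only.

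Probes of related genes could share label. Among 657 pairs of probes for different genes of the families, the longest run of bases common to a pair was 10 of the 60 bases, between Cx3cr1 and Ppbp. Cxcl1 and Cxcl2 are therefore read by probes with no long run in common. Probes were not compared with the full transcripts of other genes, so whether they share label was not tested.

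The values of the group were recomputed with other treatments of background and scale. Cxcl1, Cxcl9 and Cxcl10 stayed higher on the high-Chol diet with every background and scaling tried, with differences of 1.64 to 2.00, 2.11 to 2.52 and 2.12 to 2.90, although with a normexp background limma called 0 of the 10 genes. Cxcl16 likewise was 0.67 to 0.91 higher. With a normexp background the signs of Cxcl2, Cxcl14, Cxcr4 and Cx3cr1 turned, as given above, and all other scalings left them positive. Cxcl12 stayed lower, with differences of -0.62 to -0.14.

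**Figure D3:**
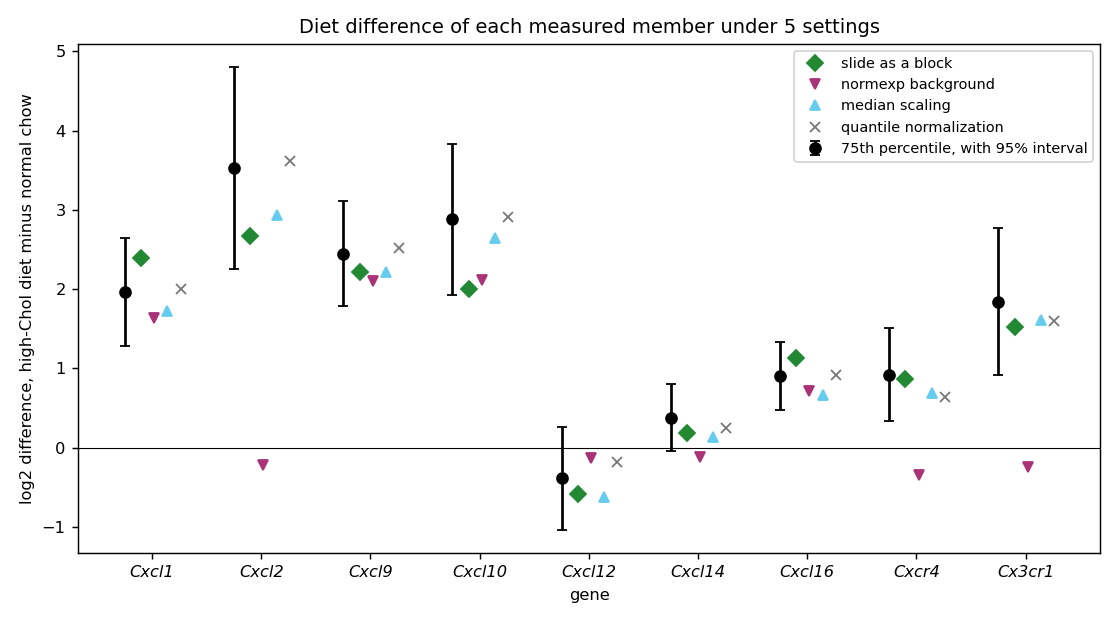
Difference between the diets (log2, high-Chol diet minus normal chow) of the 9 genes that passed the filter, with the 95% interval of limma at the 75th percentile scale (black) and the differences with slide as a block and after normexp background correction, median scaling or quantile normalization. Cxcl1, Cxcl9, Cxcl10 and Cxcl16 lie above 0 in every setting, Cxcl12 lies below 0, and Cxcl2, Cxcl14, Cxcr4 and Cx3cr1 drop below 0 with the normexp background.

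The calls depended on single arrays. Leaving out 1 array at a time, 3 of the 10 genes were called higher without the first chow array, 1 without the second and 2 without the third, where 239, 42 and 168 of all genes were. Omission of the high-Chol array of slide 1 left 6 called, beside 2314 of all genes, and omission of the first and the second array of slide 2 left 1 and 3, beside 103 and 151. Cxcl9 was called in each of these 6 fits, Cxcl1 lost its call in 3 of them, and Cxcl2 and Cxcl10 in 4. Without the high-Chol array of slide 1, diet and slide cannot be told apart. With slide as a block, which leaves 1 high-Chol array to set against the 3 chow arrays of its slide, 0 of the 10 genes and 11 of all genes were called higher. The differences of the 4 called genes in that fit were 2.39 for Cxcl1, 2.67 for Cxcl2, 2.22 for Cxcl9 and 2.00 for Cxcl10.

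Of the 18 other genes of the CXC, CX3C and XC families, 13 passed the filter, and limma called 2 higher and 0 lower, beside 2.69% and 0.227% of all genes. The median difference of the 13 genes was 0.81, against -0.02 over all genes, but -0.23 with a normexp background and 0.39 for probes well above background on all 6 arrays. Both called genes were dim on normal chow. Cxcl5, another ligand of Cxcr2 that attracts neutrophils, was not well above background on any chow array (-5.85, -5.57 and -7.50) and was well above it on all high-Chol arrays (-3.07 on slide 1, and -1.44 and -3.45 on slide 2). Cxcl5 was higher by at least 3.73-fold, or 2.45-fold without the first array of slide 2, on which it was brightest, and its fitted difference of 3.65 became -0.23 with a normexp background. Ackr3, an atypical receptor that takes up Cxcl12, read -3.84, -4.15 and -4.34 with chow, -2.50 with the high-Chol diet on slide 1, and -2.94 and -2.86 with it on slide 2. Its difference was 1.34 (SE 0.20), with 1.61 within slide 1 and -0.32 with a normexp background. Both genes passed the filter through their high-Chol arrays only, so nothing is read from these calls. With a filter for all 6 arrays 0 of these family genes were called, and when single arrays were left out Cxcl5 lost its call in 5 and Ackr3 in 4 of the 6 fits.

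The receptors of the inflammatory ligands were dim or did not pass the test. Cxcr2, the receptor of Cxcl1, Cxcl2 and Cxcl5, did not pass the filter with either of its probes, and neither did Cxcr1. Cxcr3, the receptor of Cxcl9 and Cxcl10, read -2.78, -2.72 and -3.04 with chow, -2.26 with the high-Chol diet on slide 1, and -1.72 and -2.07 with it on slide 2. The diets did not overlap, and the difference of 0.83 (95% interval 0.37 to 1.29, adjusted p = 0.0805) was 0.58 within slide 1 and -0.23 with a normexp background. Cxcr6, the receptor of Cxcl16 on T cells and NK cells, had a difference of 1.19 (adjusted p = 0.0647), also without overlap, which was 0.82 within slide 1 and -0.12 with a normexp background. Cxcr5, the receptor of Cxcl13, had one of 1.04 (adjusted p = 0.227), and Cx3cl1, the ligand of Cx3cr1, one of 0.26 (95% interval -0.29 to 0.81, adjusted p = 0.524). In both the diets overlapped, and the differences were 0.38 and 0.63 within slide 1 and -0.67 and -0.36 with a normexp background.

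The remaining genes of the families were not called. Ackr1, an atypical receptor of endothelium and red cells, had a difference of 0.99 (adjusted p = 0.0906) without overlap, which was 0.66 within slide 1 and 0.046 with a normexp background, and its other probe one of 1.07. Pf4 and Ppbp, chemokines of platelet granules, had differences of 0.81 (95% interval -0.24 to 1.86) and 0.15 (-1.46 to 1.76), with 0.51 and -0.031 within slide 1 and 0.090 and -0.57 with a normexp background. Xcr1, the receptor of cross-presenting dendritic cells, had one of 0.39, which was -0.33 within slide 1 and 0.0011 with a normexp background, and Ackr2, which scavenges CC chemokines, one of -0.03. Cxcl15, a chemokine known from lung, had one of -1.07 (adjusted p = 0.148), without overlap, but one of -0.45 within slide 1, on a probe designed on a cDNA clone, while its other probe was at background on all 6 arrays. Cxcl3, Cxcl17 and Xcl1 did not pass the filter.

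Many CXC ligand genes lie side by side on chromosome 5. In the mm7 annotation of the array, the probes of Cxcl5, Ppbp, Pf4, Cxcl3, Cxcl15, Cxcl1 and Cxcl2 followed one another from base 90732453 to base 90894807, and those of Cxcl9, Cxcl10 and Cxcl11 from base 92310412 to base 92348495. In the first of these stretches Cxcl5, with its bound of 3.73-fold, was the first gene, and Cxcl1, at 3.89-fold, and Cxcl2, with its bound of 2.40-fold, were the last, where Cxcl5 and Cxcl2 turned with a normexp background. Between them lay Ppbp and Pf4, whose diets overlapped, Cxcl3, which was at background on all 6 arrays, and Cxcl15, which was lower without overlap (-1.07, and -0.45 within slide 1). In the other stretch Cxcl11, the third ligand of Cxcr3, read -2.18, -2.85 and -3.39 with chow and -2.49, -3.41 and -1.72 with the high-Chol diet. Its diets overlapped, with a difference of 0.27 (95% interval -0.84 to 1.38; 0.32 within slide 1 and -0.22 with a normexp background), while its neighbours Cxcl9 and Cxcl10 had differences of 2.45 and 2.88. Whether the difference of Cxcl11 departs from theirs was not tested.

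**Figure D4:**
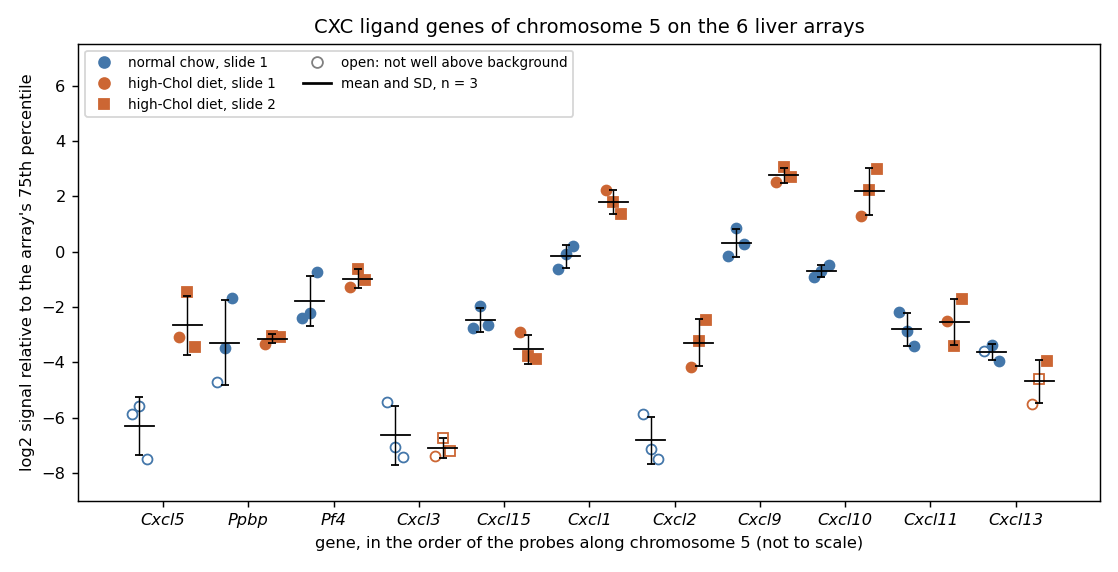
Level of the CXC ligand genes of chromosome 5 on the 6 arrays, in the order of their probes along the chromosome and not to scale, as log2 signal relative to the 75th percentile of the array, with normal chow in blue, the high-Chol diet in orange, slide 1 as circles, slide 2 as squares and the mean and SD of 3 arrays. Cxcl5, Cxcl1, Cxcl2, Cxcl9 and Cxcl10 separate upward, except that Cxcl5 and Cxcl2 turn with a normexp background, Cxcl15 separates downward, and Cxcl3 is at background (open symbols) throughout.

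Genes around the chemokines in their pathway, and markers of liver and blood cells, were read from lists that were chosen with earlier results known, by counts and medians and with no test of a list. Over all genes 2.69% were called higher and 0.227% lower. The calls of every list depend on how slide and background are treated. With slide as a block, and likewise with a normexp background, 0 genes were called in any of them. The block rests on 1 high-Chol array, and in it the differences of the called genes ran from 0.75 (Irf8) to 4.78 (Mmp12). Leaving out 1 array at a time, calls were 0 to 6 in receptor signalling, 1 to 8 in NF-kB and 1 to 6 in the interferon-gamma response. They were 3 to 7 in neutrophils, 1 to 6 in monocytes and macrophages, 0 to 3 in Kupffer cells and 0 to 7 in T and NK cells. Mmp12, Dock2, Ifng, Ciita, Retnlg and Ccr2 passed the filter through their high-Chol arrays only, so nothing is read from their calls, and beside each count the number called among probes well above background on all 6 arrays is given. Of 17 measured genes of receptor signalling, 4 were called higher (3 with the filter for all 6 arrays) and 0 lower, with a median of 0.56, which was 0.30 with a normexp background, 0.32 with median scaling, 0.33 with quantile normalization and 0.36 without the third chow array. Rgs1, which shortens signals of G proteins in lymphocytes, had a difference of 1.93 (adjusted p = 0.0377), and 0.30 with a normexp background. Gng2, a G protein subunit, had 1.40 (adjusted p = 0.0137) and 0.54, and Rac2, the Rac form of blood cells, 1.27 (adjusted p = 0.0123) and 0.88. Dock2, the activator of Rac2 in leukocytes, had 1.15, and -0.29 with a normexp background. The widely expressed counterparts Gnai2, Gnb1 and Rac1, picked after their values were seen, had differences of 0.12, 0.22 and -0.20 and were not called. Grk5 at 1.25 (2.10 within slide 1), Vav1 at 1.23, Rgs2 at 0.92 and Plcb2 at 0.56 were not called either. Of 11 measured genes of chemokine cleavage and presentation, 1 was called (0 with the filter for all 6 arrays), with a median of -0.04 that was -0.28 with median scaling and 0.049 with slide as a block. This was Mmp12, the macrophage elastase, which was not well above background on any chow array, was higher by at least 10.5-fold, and had a difference of 0.49 with a normexp background. Dpp4, which trims Cxcl9, Cxcl10 and Cxcl12, had a difference of -0.49 (adjusted p = 0.253), and Adam10 and Adam17, which release Cxcl16 and Cx3cl1 from the membrane, had 0.34 and 0.04.

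Genes of NF-kB, and genes of the response to interferon-gamma, were listed because the neutrophil ligands and the Cxcr3 ligands are known targets of these signals. Of 16 measured NF-kB factors and feedback genes, 5 were called higher (5 with the filter for all 6 arrays) and 0 lower, with a median of 0.58 (0.35 with median scaling), beside 2.69% and 0.227% of all genes. Tnfaip3, which ends NF-kB signals, had a difference of 2.27 (adjusted p = 0.00640), Relb 1.80 (0.0165), the adhesion molecule Icam1 1.60 (0.00627) and Nfkbiz 1.34 (0.00914). With a normexp background these were 1.17, 0.77, 1.55 and 0.80, and none was called. Rela and Nfkbia had differences of 0.03 and 0.11. Of 17 measured genes of the interferon-gamma response, 4 were called higher (2 with the filter for all 6 arrays) and 0 lower, with a median of 0.44, which was 0.20 with median scaling, 0.24 without the third chow array and 0.29 with slide as a block. Gbp2 had a difference of 1.76 (adjusted p = 0.0167) and Irf8 one of 1.10 (0.0472), and with a normexp background 1.18 and 0.98. Ciita, the class II activator, had 1.93, and -0.14 with a normexp background. Ifng itself was well above background on the 3 high-Chol arrays and on none with chow. Its high-Chol mean was at least 1.40-fold above the averaged limits of the chow arrays. The limit of the first chow array, -3.60, lay above all 3 high-Chol values (-4.47, -3.67 and -4.05), so that array cannot show a difference of Ifng. The fitted difference was 1.84 and became -0.60 with a normexp background. Irf1, Iigp1 and Igtp had differences of 0.44, -0.05 and 0.01 and were not called.

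Cell type markers were read on the same arrays. Of 12 neutrophil markers 7 were measured, and 4 were called higher (3 with the filter for all 6 arrays), beside 2.69% of all genes. Their median of 2.51 is the fitted value of Retnlg, a gene for which only a bound holds. The median was 2.90 with the filter for all 6 arrays, 1.80 with slide as a block and 0.30 with a normexp background. Lcn2 had a difference of 4.03, S100a8 of 3.21 and S100a9 of 2.90 (adjusted p of 0.00390 to 0.00553), and with a normexp background these were 2.61, 1.07 and 2.62. Retnlg, not well above background on any chow array, was higher by at least 3.76-fold, and -0.22 with a normexp background. Hepatocytes express Lcn2 under inflammatory stress, and monocytes express S100a8 and S100a9. The mean level of the 7 markers was -2.65 to -2.48 on the chow arrays, -0.82 with the high-Chol diet on slide 1 and up to 0.14 on slide 2. It includes Retnlg and Ltf, which passed the filter through their high-Chol arrays only, so nothing is read from this separation. The granule genes Elane, Ngp, Camp and Mmp8 and the defining marker Ly6g did not pass the filter. Of the measured markers that were not called, the granule gene Ltf had a difference of 2.18 (0.63 within slide 1) and the receptor gene Csf3r one of 0.68, both without overlap, and the granule gene Mpo one of 0.48 with overlap. Their part in the levels of Cxcl1 and Cxcl2 was not tested.

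Among 9 measured markers of monocytes and macrophages, 4 were called higher (3 with the filter for all 6 arrays). The median of the 9 was 0.82, with differences from 0.28 (Csf1r) to 3.02 (Ccr2). Lyz2 had a difference of 1.78, Cd68 of 1.74 and Mpeg1 of 1.01 (adjusted p of 0.00601 to 0.0200), and with a normexp background these were 2.03, 1.39 and 1.32. Ccr2, well above background on 1 chow array, had 3.02, and 0.17 with a normexp background. The mean level of the monocyte and macrophage markers, without Adgre1, which lacked a value on 1 array, was 1.25 to 1.38 on the chow arrays and 2.37 to 2.63 on the high-Chol arrays. Of 7 Kupffer cell markers 2 were called higher, Marco at 1.83 (adjusted p = 0.0351) and Cd5l at 1.42 (0.0123), which were 2.07 and 1.68 with a normexp background (2 with the filter for all 6 arrays). The median of the 7 was 0.59, with differences from 0.24 (Folr2) to 1.83 (Marco). Of 11 measured T and NK cell markers 1 was called (1 with the filter for all 6 arrays), Nkg7 at 1.18 (0.0494), a call lost with median scaling and with quantile normalization. The differences of the 11 ran from -0.13 (Cd2) to 1.76 (Gzma), with Cd4 at -0.01. With a normexp background the difference of Nkg7 was 0.0048, and the median of this list turned from 0.89 to -0.36. The mean level of the T and NK cell markers was -3.68 to -3.36 on the chow arrays and -2.90 to -2.34 on the high-Chol arrays. Among them Cd3d, Cd3g, Cd2, Lck, Klrb1c, Gzma and Prf1 passed the filter through their high-Chol arrays only, so nothing is read from this separation. With the filter for all 6 arrays the median of the list was 0.75. Of the markers of B cells, platelets, endothelial cells, stellate cells, cholangiocytes and hepatocytes limma called 0, with medians of 0.57, 0.29, 0.13, -0.01, -0.47 and -0.30. With a normexp background the medians of B cell, platelet and stellate cell markers turned to -0.42, -0.44 and 0.06, and with slide as a block those of B cell and platelet markers were 0.13 and -0.15. That of endothelial markers was -0.10 with median scaling, and that of hepatocyte markers -0.0099 with a normexp background. The part of these cells in the levels of Cx3cr1, Cxcr4, Cxcl9, Cxcl10 and Cxcl16 was not tested.

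**Figure D5:**
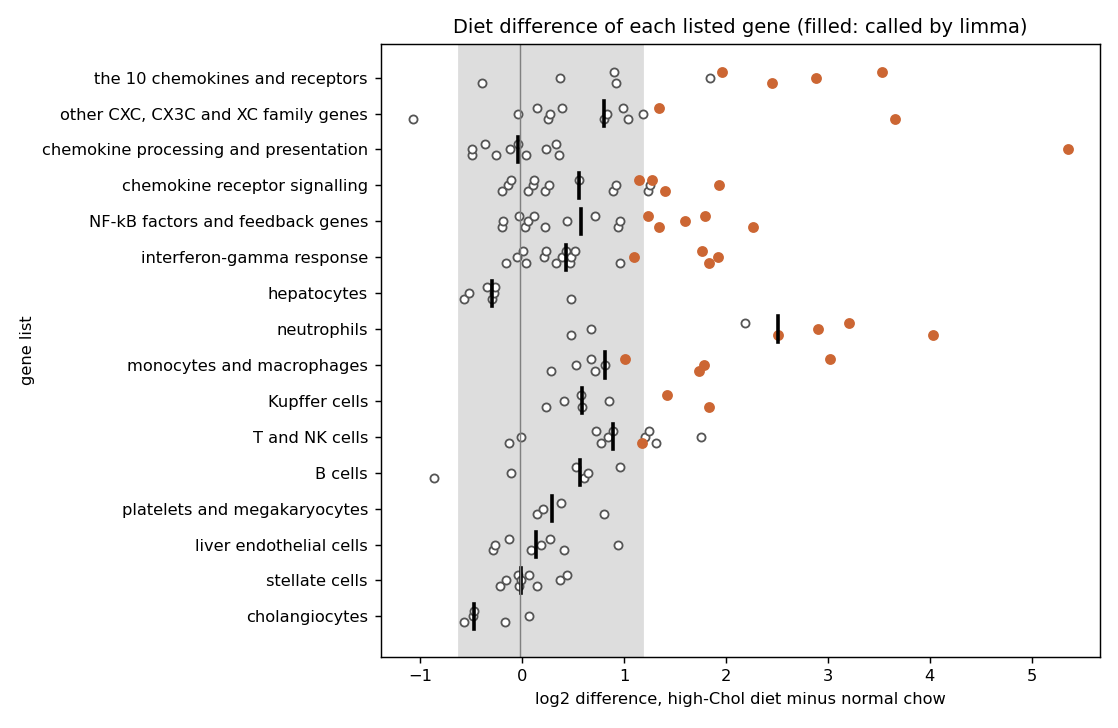
Difference between the diets (log2, high-Chol diet minus normal chow) of each measured gene of the lists, with called genes filled, the median of each list as a black line (none is drawn for the 10 chosen genes), and the band from the 5th to the 95th percentile of all 16728 genes, -0.62 to 1.18, in grey. The median of the neutrophil markers is 2.51 at this scale. This is the fitted value of Retnlg, which was not well above background on any chow array, so no rank is read from it. It was 2.90 with the filter for all 6 arrays and 1.80 with slide as a block. With a normexp background it was 0.30, below 0.78 for Kupffer cells and for monocytes and macrophages. The medians of stellate cell, cholangiocyte and hepatocyte markers lie at or below 0 at this scale.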

How the data were processed

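The labels place 3 arrays in each diet. Scanner output was deposited by the authors for each array, with spot intensity background-subtracted by the Agilent software (version 9.5 on slide 1 and 9.1 on slide 2; the labels name 9.1) and not normalized between arrays. The authors also deposited a log2 value per diet for each of 23458 probes, normalized in Gene Spring with unstated settings. The columns had medians of -0.00185 and -0.273, and the differences of 17 family genes lay within 0.0063 of those after median scaling. Their centring is not stated.

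The 75th percentile of an array was subtracted from the log2 of its intensities. Control and outlier spots were left out, and spots of a probe were averaged. A probe was kept if every array of either diet read it well above background (23915 probes), and the brightest stood for a gene. Testing used limma 3.58.1 under R 4.3.3 (lmFit, eBayes, no covariate, Benjamini-Hochberg over 16728 genes, threshold 0.05). The step was tested on simulated data. Bounds on folds use, on each chow array, the lowest signal well above background, or the signal of the probe itself where that was higher. Accessions of 22951 probes of 41174 matched the RefSeq gene table, used for names. Positions are those of mm7 in the files, without an annotation of exons. Tables and plots used Python 3.11.15, pandas 2.3.3, numpy 2.4.6 and matplotlib 3.10.9. Precision is limited by the number of arrays, and since no source says whether the experiments used separate animals, p-values measure the spread between these arrays, which may be technical.

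The members and gene lists were chosen with earlier results of these data known. All members and all other measured family genes are named, with up to 4 called genes per list, and a few other list genes, such as Nfkbia, Gnai2 and Irf1, were chosen after their values were seen. Alternatives were a normexp background (offset 50), median scaling (floor 5), quantile normalization, no filter, a filter on all 6 arrays, separate probes, averaged probes, a slide block, omission of each array, a trended and robust prior, the methods' t-test and the deposited values. A fit on slide 1 alone was added after seeing the data.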

Additional observations from a re-analysis of the deposited data

How the results depend on the processing

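All genes called higher and lower numbered 450 and 38, with 4 of the 10 genes and 2 of the other family genes called. With a normexp background all 4 counts were 0 (limma). With median scaling they were 332, 73, 5 and 1, with quantile normalization 357, 26, 4 and 1, without a filter on dim probes 26, 0, 0 and 0, and with a filter for all 6 arrays 335, 55, 4 and 0. Every probe by itself gave 564, 61, 4 and 2, and averaging the probes of each gene 456, 39, 6 and 2. With slide as a block they were 11, 0, 0 and 0, on slide 1 alone, where the lone high-Chol array was assumed to vary like the others, 3, 1, 0 and 0, and with a trended and robust prior 458, 97, 5 and 2. The methods' t-test gave 1402, 1387, 7 and 5 unadjusted and 4, 1, 0 and 0 after Benjamini-Hochberg adjustment, where limma gave 2064 and 1477 genes at an unadjusted p below 0.05. Leaving out 1 array at a time, the counts were 42 to 2314 higher, 0 to 760 lower, 1 to 6 of the 10 genes and 0 to 7 other family genes, with the highest without the high-Chol array of slide 1 and the lowest of the higher calls without the second chow array. Of the 10 genes, 0 were called lower in any of these fits.

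With a normexp background the differences that turned were Cxcl2 (-0.22), Cxcl14 (-0.12), Cxcr4 (-0.34), Cx3cr1 (-0.25), Cxcr5 (-0.67), Ackr3 (-0.32), Cx3cl1 (-0.36), Cxcl11 (-0.22), Cxcl5 (-0.23), Ppbp (-0.57), Cxcr3 (-0.23) and Cxcr6 (-0.12). This setting added an offset of 50 on every array before scaling. Without it, the 75th percentile of the signal was 271 to 373 on slide 1 and 762 to 799 on slide 2. The part of the offset in these turns was not tested. Ppbp was -0.089 with median scaling, -0.14 with quantile normalization and -0.031 within slide 1, where Ackr2 was 0.042 and Xcr1 -0.33. Leaving out 1 array at a time, Ackr2 ranged from -0.18 to 0.18, Ppbp from -0.56 to 0.96 and Cxcl11 from -0.14 to 0.70, and no difference of the 9 fitted members turned. The median over all genes moved from -0.02 to -0.26 with median scaling and to -0.11 with a normexp background. No paired analysis was possible because the arrays carry no numbers that pair the diets. Signal over background limits several values, since Cxcl2, Cxcl13, Cxcr4 and Cx3cr1 were not well above background on 1 or more chow arrays.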
